A study of Drosophila melanogaster with 12 samples.

Results

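The genes described here are 54 Drosophila melanogaster genes with a CG number as their symbol whose transcripts were at similar levels in bam, aly and sa mutant testes and lower in yw testes. They were chosen by measured values: a mean intensity of at least 300 in bam, means in bam, aly and sa each at least 4 times that in yw, and means in aly and sa less than 2 times and more than 0.5 times that in bam. Of 11982 genes measured with a single symbol, 5209 had a symbol of CG plus digits, and 54 of these (1.04%) met every threshold. Whole testes of 1-day-old males were profiled on Affymetrix Drosophila Genome 2.0 arrays, with 3 biological replicates for each of 4 genotypes and each RNA sample pooled from about 200 pairs of testes. The genotypes were bam1/bamΔ86 (bam), aly2/aly5P (aly), sa1/sa2 (sa) and y,w (yw), and the strain backgrounds of the 3 mutants are not given in the labels. The series compared successive stages of a stem cell lineage as differentiation genes become active.

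In the fly testis, germline stem cells produce spermatogonia that divide a fixed number of times, and bam is needed to end these divisions, so that testes mutant for it fill with spermatogonia. The next stage, the primary spermatocyte, switches on a large set of genes for meiosis and sperm formation. Turning these genes on needs both aly, whose protein belongs to the testis Myb-MuvB-type complex known as tMAC, and sa, whose protein is a testis TAF, that is, a paralog of a general transcription factor subunit. Spermatocytes mutant for either gene arrest before the meiotic divisions. The y and w mutations alter body and eye colour, and yw testes hold all stages, including spermatids, which carry many transcripts made earlier in spermatocytes.

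All values are the deposited linear intensities, given as single arrays in the order of replicates 1, 2 and 3 or as mean ± SD (n = 3 arrays), and intensities of different genes are not compared as amounts of transcript because probe sets differ in brightness. Array medians over all probe sets ran from 44.9 to 57.2, and arrays of a genotype correlated across genes at r = 0.977 or more. The number of arrays, not a read depth, limits the precision. In RNA from whole testes, fewer cells of a type and less RNA per cell cannot be told apart, and the genotype and the mix of cell stages it leaves cannot be told apart either. Of the marker lists, the spermatid genes had a mean log2 level of 5.63 to 5.69 for bam against 12.72 to 12.94 for yw, and the stem cell and spermatogonia genes a level of 10.44 to 10.53 for bam against 7.12 to 7.31 for yw.

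The label "uncharacterised" held for the symbols but not for every gene. The RefSeq gene table gives 12 of the 54 a synonym that reads as a gene name. CG7483 is listed there as eIF4AIII, the core RNA helicase of the exon junction complex, which marks spliced messages. A group of 5 members carries synonyms of factors that build ribosomes in the nucleolus: CG7006 (dNIP7), CG5033 (BOP1), CG3817 (RRP15), CG3335 (Dm-RBD-1) and CG3527 (dNEP1). Their roles are known best from yeast and animal homologs. In yeast, NIP7 and RRP15 act on the large ribosomal subunit and NEP1 methylates the rRNA of the small subunit. CG5033 is also listed as dWDR36, and since BOP1 acts on the large and WDR36 on the small subunit, its synonyms do not settle which it serves. This grouping was read from the synonyms after the values were seen and was not tested. CG12728 is listed both as XRCC4 and as XLF1, in human cells different proteins of DNA end joining, so its synonyms do not settle which it is. CG5199 is listed as CUT8, in fission yeast a protein that holds proteasomes at the nucleus. The synonyms of CG6769 (Vms1), CG13192 (betaG), CG30020 (p190) and CG17294 (Phos17294) are given without a role. CG42254 is now an antisense RNA (CR42254) in RefSeq, so that which transcript its probe set reads is not settled. The other 53 were protein-coding.

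Across the 54 genes, the mean intensity ran from 306 to 5331 in bam (median 969), from 249.7 to 6042 in aly (median 987), from 206 to 5379 in sa (median 811) and from 30.2 to 1084 in yw (median 147). By bam mean, 15 genes lay between 300 and 500, 12 between 500 and 1000, 17 between 1000 and 2000, and 10 above 2000. Low in yw did not mean dark in yw: 29 of the 54 had a yw mean above the all-gene median of every yw array, and the median member stood at percentile 50.7 of all genes in yw against 77.7 in bam. The ratio of bam to yw had a median of 6.23 and reached 16.8, that of aly to yw a median of 6.97 and a highest value of 16.8, and that of sa to yw a median of 5.37 and a highest value of 10.3. At least 8 times the yw mean was reached by 10 genes in bam, 23 in aly and 3 in sa.

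**Figure D1:**
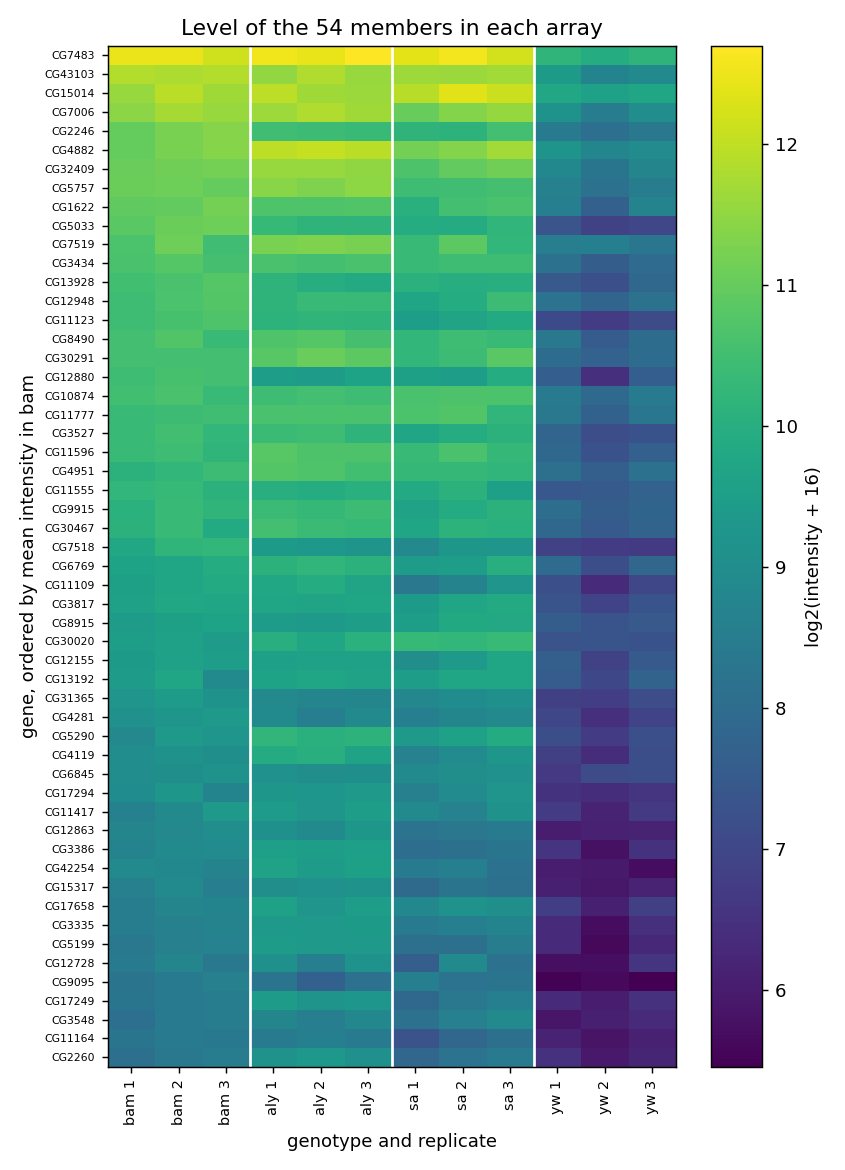
Log2(intensity + 16) of the 54 genes (rows, ordered by bam mean) in the 12 arrays (columns, grouped by genotype; white lines separate genotypes). The yw columns are darker than the 9 mutant columns in every row, which the selection required of the means, and yw replicate 2 is the darkest of the 3 yw columns for 45 of 54 genes.

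In every one of the 54, all 9 mutant arrays were brighter than all 3 yw arrays, as was so for 29.5% of all genes tested. The selection on the group means favours this, and nothing is read from it. The lowest mutant array exceeded the highest yw array by 2.29-fold (CG13192) to 6.39-fold (CG5033), with a median of 3.74-fold. On the log2(intensity + 16) scale used for all tests, which understates the change of dim genes, limma called all 54 higher in bam, aly and sa than in yw at a Benjamini-Hochberg adjusted p under 0.05 and at least 2-fold. The share of all genes called higher was 34.2% for bam, 28.3% for aly and 23.9% for sa. The 3 comparisons share the yw arrays and were used by the selection, so these counts describe the choice. Member medians were 2.48, 2.68 and 2.30 on that scale for bam, aly and sa minus yw, against 0.18, 0.15 and 0.08 over all genes.

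**Figure D2:**
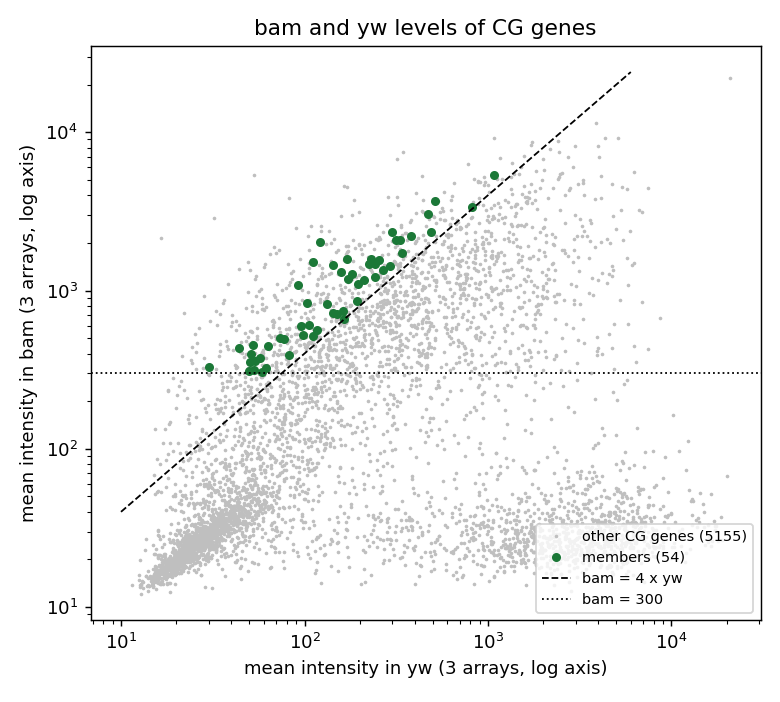
Mean intensity in bam against mean intensity in yw (3 arrays each, both axes logarithmic) for the 54 genes (green) and the other CG genes (grey), with the 4-fold line (dashed) and the bam minimum of 300 (dotted). The 54 genes spread along the 4-fold line from a yw mean of 30.2 to 1084 and are outnumbered above it by CG genes that failed a limit in aly or sa.

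The brightest members came first by level in bam. CG7483 (eIF4AIII) measured 5701, 5705 and 4587 in bam, 5933, 5579.6 and 6614 in aly, 5355, 6085 and 4696 in sa, and 1152, 959.8 and 1142 in yw. It was the brightest member in all 4 genotypes, and its mutant arrays sat between 4587 and 6614, well apart from yw. CG43103, for which the table lists no name, measured 3667, 3559 and 3735 in bam, 2918, 3595 and 3026 in aly, 3167, 3120.2 and 3293 in sa, and 665, 409.9 and 459 in yw. Its aly and sa arrays overlapped, and a single aly array reached into the bam range. CG15014 measured 3037, 3906 and 3204 in bam, 3992, 3197 and 3086 in aly, 3884, 5270.4 and 4428 in sa, and 876, 756 and 828 in yw. Here 2 of the sa arrays exceeded every bam and aly array, and this gene was among the closest to the 4-fold limit, at 4.13 times yw in bam and 4.18 times in aly.

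CG7006 (dNIP7) measured 2771, 3367 and 3027 in bam, 3153, 3643 and 3244 in aly, 2041, 2586 and 2965 in sa, and 561, 345 and 502 in yw. Its bam arrays overlapped both aly and sa, and sa replicate 1 was the lowest mutant array. CG4882 was brightest in aly, at 4045 ± 166 against 2346 ± 312 in bam, 2736 ± 522 in sa and 491 ± 73.1 in yw. CG2246, read by a probe set marked as shared between transcripts, was brightest in bam, at 2354 ± 310.0 against 1356 ± 59.8 in aly, 1239 ± 206 in sa and 301 ± 39 in yw. Of the remaining members in the brightest 12, CG32409, CG5757 and CG7519 were highest in aly (2976 ± 111, 2682 ± 159 and 2402 ± 70.2, against 382 ± 78.7, 332 ± 54 and 342 ± 35.4 in yw). CG1622 and CG3434 were highest in bam (2073 ± 206 and 1593 ± 129.8, against 317 ± 111 and 229.9 ± 49.7 in yw).

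The widest gap between bam and yw belonged to CG5033 (BOP1), which measured 1821, 2119 and 2167 in bam, 1255, 1142 and 1128 in aly, 962, 948 and 1166 in sa, and 148, 103 and 113 in yw. Its bam arrays stood above all aly and sa arrays, and its bam mean was 16.8 times the yw mean. CG11123 followed, with 1373, 1536 and 1659 in bam, 1104, 1152 and 1128 in aly, 721, 799.7 and 926 in sa, and 120.0, 90.6 and 123 in yw. The 3 mutants did not overlap and stood in the order bam, aly, sa. CG7518 measured 877, 1161 and 1193 in bam, 662, 626 and 572 in aly, 449, 614 and 585 in sa, and 99.8, 89.6 and 87.5 in yw, a 11.7-fold ratio of bam to yw, and its aly and sa arrays overlapped below bam. CG9095, the dimmest member in yw, measured 287, 329 and 376 in bam, 284, 191 and 274 in aly, 365, 280.2 and 286 in sa, and 29.2, 33.7 and 27.8 in yw. Its yw arrays were below the median of all probe sets, and its sa arrays overlapped both bam and aly, while every aly array was below every bam array. The next ratios of bam to yw were 10.2 for CG12880, 9.87 for CG42254, 9.27 for CG13928 and 8.65 for CG12863.

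Among the genes with a synonym of a ribosome-building factor, the levels differed in shape across the mutants. CG3817 (RRP15) measured 757, 866 and 834 in bam, 820.3, 800.1 and 839 in aly, 657, 820.1 and 920.1 in sa, and 147, 105 and 146 in yw, the most even member of all by its bam, aly and sa means. CG3335 (Dm-RBD-1) measured 355, 377 and 401 in bam, 646, 648 and 663 in aly, 321, 364 and 406 in sa, and 65.2, 35.3 and 72.2 in yw. Its aly arrays stood above all bam and sa arrays. CG3527 (dNEP1) measured 1278, 1444 and 1205 in bam, 1321, 1371 and 1139 in aly, 842, 966 and 1077 in sa, and 208, 128 and 139 in yw, with bam and aly overlapping and sa below both. So of the 5, aly was the highest of the mutants in CG7006, CG3335 and CG3817 by mean, and bam in CG5033 and CG3527. Among these, the leading mutant stood clear of the others in CG3335 and CG5033, while bam and aly overlapped in CG7006, CG3817 and CG3527.

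Within the band that the selection allowed, the order of the 3 mutants varied from gene to gene. The highest of the 3 mutant means was that of aly for 35 genes, of bam for 15 and of sa for 4, and the lowest was that of sa for 37, of bam for 10 and of aly for 7. The 3 means lay within 1.5-fold of each other for 28 genes. CG6845 was, after CG3817, the most even, with 492, 517 and 545 in bam, 544, 508 and 513 in aly, 467, 508 and 539.6 in sa, and 85.2, 121 and 129 in yw. Both were singled out after their values were seen. Their aly minus sa differences on the log2 scale were 0.05 (95% interval -0.26 to 0.36) for CG3817 and 0.05 (-0.23 to 0.32) for CG6845.

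Against bam, the selection kept aly and sa within 2-fold, and at the 2-fold minimum limma called 0 of 54 in either comparison, where 35.0% of all genes were called in aly and 41.2% in sa. Without a fold minimum, limma's adjusted p was under 0.05 for 26 genes in aly against bam (18 higher and 8 lower, where 28.9% and 30.1% of all genes were) and for 22 in sa against bam (3 higher and 19 lower, where 31.3% and 36.3% of all genes were). These comparisons were used by the selection and share the bam arrays, so their values are only set side by side. CG5290, the member closest to the upper limit, was at a log2 difference of 0.98 in aly and 0.45 in sa. CG12880, at the lower limit, was at -0.99 in aly and -0.85 in sa, and measured 1372, 1536 and 1467 in bam, 713, 681 and 794 in aly, 744, 718 and 956 in sa, and 179, 71 and 181 in yw. CG30020 stood highest in sa, with 699, 761 and 692 in bam, 1001, 839 and 1064 in aly, 1248, 1208 and 1269.8 in sa, and 141, 147 and 141 in yw, and differed from bam by 0.42 in aly and 0.78 in sa. The sa, aly and bam arrays of CG30020 did not overlap.

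**Figure D3:**
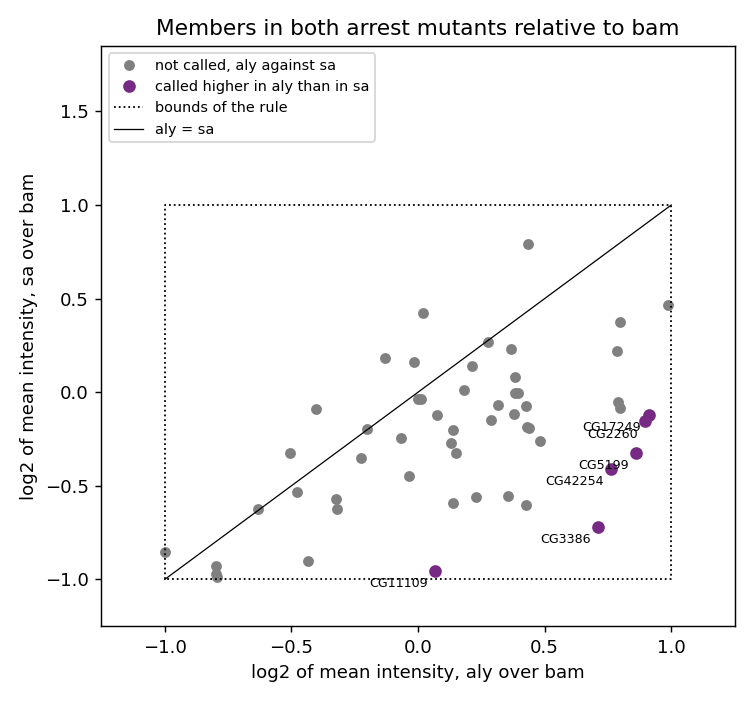
Log2 ratio of the aly mean to the bam mean (x axis) and of the sa mean to the bam mean (y axis) for the 54 genes, with the bounds of the selection (dotted square) and the line of equal aly and sa (solid). Most points (45 of 54) lie below the line, where aly exceeds sa, and the 6 genes called higher in aly than in sa (purple) lie well below it.

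The comparison of aly with sa was not itself a criterion, although the bounds against bam limit it to less than 4-fold. It asks whether loss of a tMAC subunit and loss of a testis TAF leave these transcripts at the same level. The aly mean exceeded the sa mean for 45 genes and fell short of it for 9, with a median log2 difference of 0.39, against 0.10 over all 11982 genes. Limma called 6 of 54 higher in aly and 0 lower at an adjusted p under 0.05 and at least 2-fold, where 7.90% of all genes were called higher and 11.9% lower. Without a fold minimum 21 were higher in aly and 3 higher in sa, where 30.1% and 22.7% of all genes were. The arrays of aly and sa did not overlap for 30 genes with aly above and for 3 with sa above, against 40.7% and 25.7% of all genes. The bounds of the selection limit how large these differences can be, so the counts are not set against the shares of all genes by a test.

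CG3386 showed the widest difference, with 400.2, 454 and 477 in bam, 731, 721 and 726 in aly, 250.1, 265 and 294 in sa, and 77.2, 38.9 and 74.7 in yw. The 3 mutants did not overlap and stood in the order aly, bam, sa, and the log2 difference from sa was 1.38 ± 0.17 (SE, limma adjusted p = 5.10e-05). CG5199 (CUT8) measured 314, 376 and 392 in bam, 684, 651 and 631 in aly, 261, 262 and 341 in sa, and 65.8, 33 and 62.5 in yw. Its aly arrays exceeded all others, by 1.15 ± 0.18 against sa (SE, limma adjusted p = 3.12e-04). CG42254, the locus now listed as an antisense RNA, measured 459, 442 and 396 in bam, 772, 689 and 740.0 in aly, 340.4, 367 and 269 in sa, and 48.9, 46.7 and 35.7 in yw. It stood in the order aly, bam, sa with no overlap, and differed from sa by 1.14 ± 0.13 (SE, limma adjusted p = 1.69e-05).

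The other 3 calls rested on narrower margins. CG11109 measured 746, 829 and 919.8 in bam, 852, 957 and 807 in aly, 309.9, 398 and 581 in sa, and 134, 65.8 and 110.5 in yw. Aly and bam overlapped while sa was lower, and the sa arrays spread widely (log2 difference 1.04, limma adjusted p = 0.00388). CG2260 measured 262, 309 and 345 in bam, 559, 615 and 534 in aly, 214, 278 and 330.3 in sa, and 73.1, 46.1 and 57 in yw. Its bam and sa arrays overlapped and aly was higher (log2 difference 1.03, limma adjusted p = 3.90e-04). CG17249 measured 293, 331 and 354 in bam, 677, 569 and 594 in aly, 223, 309 and 367 in sa, and 63.7, 49.2 and 73.1 in yw, the same arrangement (log2 difference 1.02, limma adjusted p = 4.48e-04). These 3 calls, and no others of the 6, were lost without sa replicate 1. In that array 39 of the 54 genes had their lowest sa value. The share of all genes with their lowest sa value there is not given, so nothing is read from this count. Without that array the log2 differences were 0.83 for CG11109, 0.87 for CG2260 and 0.83 for CG17249. CG11109 (0.97) and CG2260 (0.97) were also lost without aly replicate 2, and CG17249 (0.95) without aly replicate 1. Without sa replicate 1 the member median was 0.27 and 41 genes were higher in aly.

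**Figure D4:**
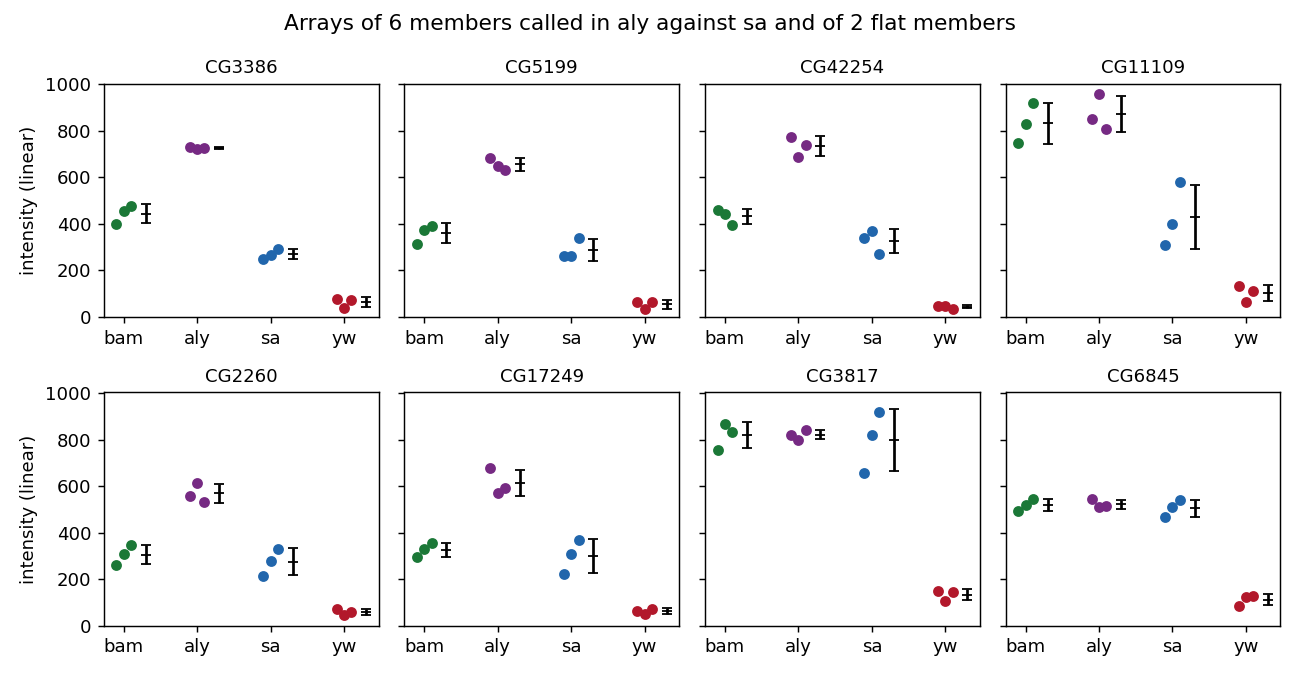
Linear intensity of single arrays (points) with mean and SD (n = 3 arrays, black) in each genotype for the 6 genes called higher in aly than in sa and for CG3817 and CG6845. In the 6 called genes the aly points lie above the sa points, while in CG3817 and CG6845 bam, aly and sa overlap.

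Just short of the fold minimum were CG15317 (log2 difference 0.99, limma adjusted p = 2.31e-05) and CG5757 (0.90, limma adjusted p = 4.09e-05). The genes higher in sa were CG15014, CG30020 and CG8915, with aly minus sa log2 differences of -0.40, -0.36 and -0.30, limma adjusted p of 0.0357, 0.00603 and 0.0396, and no fold of 2. With each array centred on the median of all genes, 17 members were called higher in aly and all 54 differences were above 0, while centring on ribosomal protein genes gave 7 calls. The all-gene median of this comparison was 0.58 and 0.16 in these scalings, and the member median 0.87 and 0.46. The share of all genes called higher in these scalings is not given, so nothing about the members is read from these counts.

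The size of the difference from yw depended on what the arrays were scaled to. The 41 ribosomal protein genes measured had higher array medians in every mutant, on the log2 scale 13.78 to 13.80 (bam), 13.40 to 13.56 (aly) and 13.51 to 13.55 (sa) beside 12.11 to 12.43 (yw). Their median difference from yw was 1.5 in bam, 1.30 in aly and 1.28 in sa, with 36, 31 and 34 genes called higher by limma and 3 lower in each. Each of the 54 genes differed from yw by more than that median in all 3 comparisons. The 4-fold limits of the selection favour this, and nothing is read from it. Centred on these genes, the member medians fell from 2.48 to 0.98 in bam, from 2.68 to 1.49 in aly and from 2.30 to 1.05 in sa. All 54 differences stayed above 0, which the same limits favour, but the calls fell to 25 in bam, 48 in aly and 33 in sa. The share of all genes called higher on that scale is not given, so nothing about the members is read from these counts. On that scale 0 of the 54 met the thresholds, and a single other CG gene did. The all-gene medians moved to -1.32, -1.04 and -1.16.

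**Figure D5:**
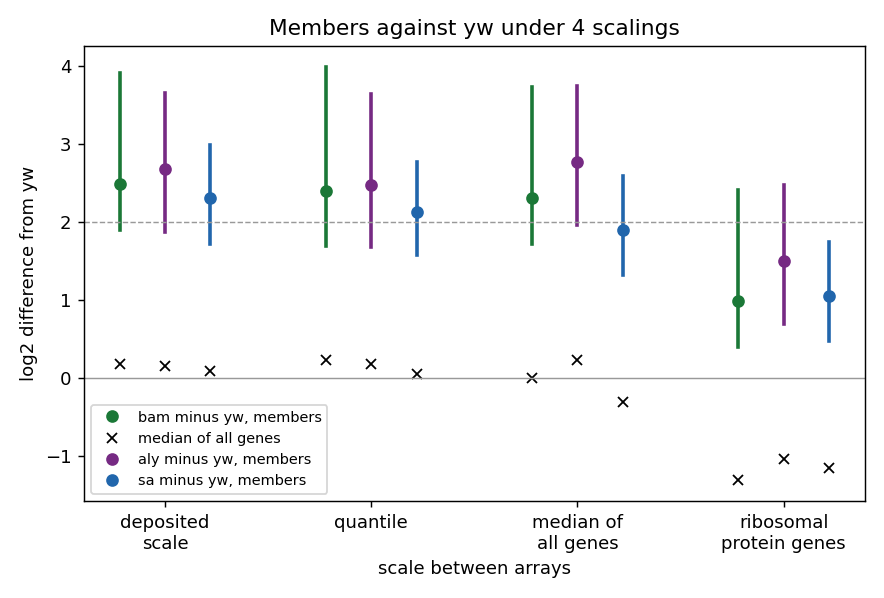
Log2 difference from yw of the 54 genes for bam, aly and sa (colours; point, median; line, lowest to highest gene) on 4 scales between arrays, with the median of all genes as a cross and 4-fold as a dashed line. Centring on ribosomal protein genes lowers the members and all genes together and leaves every member above 0, which the 4-fold limits of the selection favour.

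The yw arrays also set the membership. The value in yw replicate 2 was the lowest of the 3 for 45 of 54 members, against 54.9% of all genes. Without that array 40 CG genes met the thresholds, and without yw replicate 1 there were 64. In all, 32 of the 54 met the thresholds whichever single array was left out, and 28 met them with every array of a genotype in place of its mean. Under quantile normalization 28 of the 54 remained, and with median centring 19 did. A set of 15 remained under those 3 alternatives alike: CG11417, CG11555, CG11596, CG11777, CG12863, CG13928, CG17294, CG30020, CG30291, CG3434, CG3527, CG3817, CG43103, CG7006 and CG8490. None of the 6 genes called in aly against sa was among them. CG30020 was the only one of the 15 that failed the thresholds when the probe sets of a gene were averaged. Of those not yet described, CG11777 was at 1341 ± 72 in bam, 1554 ± 3.07 in aly, 1479.8 ± 263 in sa and 269 ± 66 in yw. CG11417 was at 493 ± 133, 662 ± 69.1, 469 ± 87.7 and 77.4 ± 19.4 in the same order, and CG11596 at 1276 ± 119, 1667 ± 96.2, 1353 ± 169 and 182 ± 40.2. The bam and yw means were 1175 ± 73.2 and 173 ± 22 for CG11555, 1461 ± 10.4 and 226 ± 27.2 for CG30291, and 1481 ± 189 and 242 ± 69.2 for CG8490.

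Members and non-members lay close together at the limits. At the bam minimum of 300 the dimmest members were CG2260 (306), CG11164 (311) and CG3548 (315), and the sole CG gene that failed on this alone was CG33172, at 145.5. For the ratio of bam to yw the nearest inside were CG13192 (4.02), CG15014 (4.13) and CG6769 (4.44), and the nearest of 14 outside were CG3793 (3.996), CG12259 (3.88) and CG32109 (3.83). For aly to yw they were CG31365 (4.04), CG8915 (4.17) and CG15014 (4.18) inside, and CG15209 (3.95), CG11593 (3.79) and CG18870 (3.71), of 11, outside. For sa to yw they were CG6769 (4.09), CG12948 (4.11) and CG2246 (4.11) inside, and CG12477 (3.91), CG14803 (3.85) and CG13096 (3.85), of 26, outside. More genes thus failed on sa against yw alone than on any other single limit.

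Relative to bam the upper limit for aly had CG5290 (1.98), CG17249 (1.88) and CG2260 (1.86) inside, and CG8321 (2.03), CG32202 (2.18) and CG7101 (2.19), of 12, outside. The lower limit for aly had CG12880 (0.50), CG7518 (0.58) and CG2246 (0.58) inside and CG4554 (0.45), CG3679 (0.44) and CG3862 (0.42), of 4, outside. For sa, no CG gene failed on the upper limit alone, the nearest inside being CG30020 (1.73), CG5290 (1.38) and CG15014 (1.34). At the lower limit for sa lay CG5033 (0.50), CG7518 (0.51) and CG11109 (0.52) inside, and CG12391 (0.47), CG5160 (0.47) and CG17652 (0.45), of 9, outside.

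A few members were neither among the brightest listed nor among those named as nearest to a limit. Some of them still lay close to the limit for sa to yw, with ratios of 4.299 for CG4281, 4.365 for CG12155 and 4.419 for CG9915. CG4119 was at 521 ± 27 in bam, 905 ± 119.6 in aly, 490.4 ± 108 in sa and 98.7 ± 30.2 in yw, and CG17658 at 392 ± 34.6, 681 ± 89.6, 509 ± 59.5 and 82 ± 25.6 in that order, so that both were highest in aly. CG4281 was highest in bam, at 598 ± 51.9, beside 429 ± 61.6 in aly, 413 ± 42.4 in sa and 96 ± 21.4 in yw. CG4951, CG9915, CG30467 and CG12155 kept closer to an even level, with bam means of 1213 ± 129, 1172 ± 119, 1100.0 ± 177 and 712 ± 52.9 and yw means of 241 ± 48.8, 212 ± 39.4, 195 ± 27.8 and 150.2 ± 44.2.

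Of the 54 genes, 52 were read by a single probe set, and the other 2 had a second that did not meet the thresholds. The second probe set of CG30020 measured 202.8 ± 19.3 in bam, 23.7 ± 2.46 in aly, 20.2 ± 0.266 in sa and 16.3 ± 0.67 in yw. It was thus bright in bam alone, where the probe set used was bright in all 3 mutants. That of CG10874 measured 266 ± 71.1 in bam, 553 ± 18.1 in aly, 387 ± 117 in sa and 113 ± 14.0 in yw, against 1421 ± 122, 1408 ± 51.9, 1589 ± 42.9 and 291 ± 54.5 for the probe set used. Both of its probe sets were lowest in yw.

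Genes with a proper name met the same thresholds in 137 of 6773 cases (2.02%). Among the brightest 12 in bam, RpS5b and RpL37-2 are ribosomal protein paralogs, Nph is nucleophosmin, a histone chaperone, CCT1, CCT5, CCT3 and Pfdn2 are subunits of the chaperonin and prefoldin that fold proteins, Prosbeta2 and Prosalpha6 are proteasome subunits, TfIIA-S and Ssb-c31a act in transcription, and SC35 acts in splicing. RpS5b, the brightest, was at 13927 ± 370.4 in bam, 10759 ± 759 in aly, 10456 ± 1009.7 in sa and 2518 ± 346 in yw. Of the 137, 7 were called higher in aly than in sa and 0 lower, beside 6 and 0 of the 54.

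None of the measured genes on the 12 lists of markers met the thresholds, where 2.02% of all genes with a proper name did. For lists of this size that is near the share, and nothing is read from it. Measured were, among others, 15 stem cell and spermatogonia, 20 spermatocyte, 16 spermatid, 13 hub and cyst cell and 10 testis muscle genes. Limma called 11 of the 15 stem cell and spermatogonia genes lower in aly than in bam and 11 lower in sa, with 0 higher in either. Of the 20 spermatocyte genes, 17 were higher and 1 lower in aly than in bam, and 16 were higher and 0 lower in sa. Among the somatic lists, testis muscle was brighter in bam than in the other genotypes, at a mean log2 level of 10.09 to 10.26. For this list aly (7.31 to 7.85) and sa (7.76 to 8.38) both overlapped yw (7.83 to 8.55). By its mean level the hub and cyst cell list was also brighter in bam, at 7.97 to 8.05. Its aly (6.46 to 6.73) and sa (6.78 to 7.05) levels each overlapped yw (6.6 to 6.8). In bam against yw, limma called 9 of 10 muscle genes higher and 1 lower. For the hub and cyst cell list it called 6 of 13 higher and 1 lower, where 34.2% of all genes were higher. The accessory gland list was above the muscle list in every genotype and spread widely between arrays of bam (10.4 to 12.71) and of yw (9.5 to 12.16). It was at 8.45 to 9.14 in aly and 9.35 to 10.41 in sa. The part of accessory gland RNA in the levels of the genes described here was not tested.

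A further 3 lists had all 9 mutant arrays above all 3 yw arrays by mean level, as the 54 genes do by selection. Among single genes this held for 29.5%. Over all genes, limma called 34.2% higher than yw in bam, 28.3% in aly and 23.9% in sa. For lists of 8 genes, the detoxification and hemocyte counts below are near these shares, and nothing is read from them. The stem cell and spermatogonia list was at 7.69 to 7.82 in aly and 7.75 to 8.07 in sa, and limma called 13 of 15 genes higher and 0 lower than yw in bam, 5 higher and 2 lower in aly, and 6 higher and 1 lower in sa. Its median log2 difference from yw was 3.76 in bam, 0.08 in aly and 0.79 in sa. The detoxification and stress list was at 9.59 to 9.68 for bam, 8.83 to 8.96 for aly, 9.26 to 9.4 for sa and 8.49 to 8.7 for yw, with 3, 2 and 2 of 8 genes called higher and 0 lower. The hemocyte list was at 6.8 to 7.02 for bam, 6.19 to 6.45 for aly, 6.2 to 6.35 for sa and 5.93 to 5.98 for yw, with 2 of 8 genes called higher in each and 1 lower in aly. Of its genes, the scavenger receptor crq had mean intensities of 1261, 286 and 221 for bam, aly and sa and 89.9 for yw, and the peroxidasin gene Pxn 312, 153 and 232 beside 88.8, so that both were lowest in yw. Hml, which encodes a clotting protein of hemocytes, was at 90.9, 167 and 69.3 beside 46.6, and the phagocytic receptor NimC1 at 57.5, 85.4 and 55.7 beside 51.5. The GATA factor gene srp, at 198, 27.3 and 89.99 beside 99.1, was the gene called lower in aly, and He, eater and Sr-CI were at 30.6 or less in every genotype. The part of these cells in the levels of the 54 genes was not tested.

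In the Release 6 gene order, 53 members had a measured protein-coding gene next to them. For only 1 of them (1.89%) did an adjacent gene meet the same thresholds, against 2.93% of 11578 genes and 4.01% of 5037 genes with, like the members, a bam mean of at least 300. That member was CG17294, next to AlaRS, which encodes alanyl-tRNA synthetase. AlaRS was at 1962 ± 157 in bam, 3244 ± 133 in aly, 1651 ± 246 in sa and 339 ± 22.1 in yw, and CG17294 at 499 ± 101, 622 ± 27.2, 477 ± 106 and 73.4 ± 4.04.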

How the data were processed

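Arrays were grouped by the genotype and replicate number that the labels give, 3 biological replicates for each of 4 genotypes. The authors deposited an intensity on a linear scale for each probe set and array. Per the series' design text they were normalized with RMA, and per the submitters' processing notes with MAS5, RMA and limma; which of these gave the table, with which background correction, is not given in the sources used here. Of 18952 probe sets, 183 controls were left out, and 13647 of the rest had a single symbol, 402 several and 4720 none in the platform's annotation. The probe set with the highest mean log2(intensity + 16) stood for each of 11982 genes, with no filter on low values. Symbols were looked up by Entrez identifier in the RefSeq table of Release 6, where 53 of the 54 genes matched, and CG42254 was found there as a synonym.

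All 12 arrays entered a single limma 3.58.1 fit (R 4.3.3) with a mean per genotype, on log2(intensity + 16), with eBayes and Benjamini-Hochberg adjustment over all genes. The fit was tested on simulated data. Labels do not say what a replicate shares with another, so p-values measure only the spread between these samples. The genes, lists and thresholds were chosen with earlier results of these data known. Genes named are the 12 brightest in bam, the 8 with the largest ratio of bam to yw, those called between aly and sa, the 3 nearest to each threshold on either side and the 12 brightest named genes meeting the thresholds; genes named by a RefSeq synonym, by evenness, by staying under 3 alternatives, to account for every member, or by a small count were chosen after their values were seen. The lists marked hub and cyst cells, testis muscle, pigment cells with seminal vesicle or ejaculatory duct, accessory gland, fat body, hemocytes, nervous and tracheal cells, stem cells and spermatogonia, spermatocytes, spermatids, detoxification and stress, and immune peptides. Sequences of these genes were not used here. Tables were joined in Python 3.11.15 and plotted with matplotlib 3.10.9.

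The alternatives changed the pseudocount (1 or 64), the scaling (quantile, or centring on all genes or ribosomal protein genes), the genes (probe sets averaged, dim genes left out), the fit (only the arrays compared, a replicate block, a robust trend in eBayes, weighted arrays), the call (adjusted p under 0.01, or no fold minimum) and the thresholds of the selection (every array in place of the mean), and left out each array in turn.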

Additional observations from a re-analysis of the deposited data

How the results depend on the processing

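The count of genes meeting the thresholds, 54, was 29 with quantile normalization, 22 centred on all genes, 1 centred on ribosomal protein genes and 28 with every array in place of the mean; without a single array it ran from 40 to 64. All 54 stayed called higher than yw under every alternative except ribosomal centring, which left 25 in bam, 48 in aly and 33 in sa. The 6 calls in aly against sa became 3 with a pseudocount of 64, 17 centred on all genes, 24 with no fold minimum and from 3 (without sa replicate 1) to 8 without a single array. With the replicate block they were 6, and the block changed no other count. Deviations of same-numbered arrays from their genotype means correlated at -0.416 to 0.481, so the numbers were not taken to pair samples. Those of differently numbered arrays ran wider, from -0.591 (bam 1 with yw 3) to 0.663 (bam 1 with yw 2). What these bam and yw arrays shared was not tested. Of 150 repeats for the 6 genes called in aly against sa, 140 kept the call, 10 lost it and 0 changed sign. Many of these repeats, such as those without a bam or yw array, could not move the difference itself. A call also cannot be lost with no fold minimum, so the 140 is not read as a measure of stability. The 0 calls in aly against bam became 1 with a pseudocount of 1 or with probe sets averaged per gene, 3 with quantile normalization, 9 centred on all genes, 10 on ribosomal protein genes, 26 with no fold minimum, and 0 to 1 without a single array, being 1 without any bam array or without aly replicate 2 or 3. Those in sa against bam became 6 with quantile normalization, 6 centred on all genes, 1 on ribosomal protein genes, 3 with array weights, 22 with no fold minimum, and 0 to 4 without a single array, being 4 without bam replicate 1 or sa replicate 3 and 1 without sa replicate 2. The single-array counts against bam sit at the selection's own 2-fold bound. The cause of the other shifts was not tested. The share of all genes called is not given for the alternatives, so the counts under them are not read as results about the members. Signal over background is not given in the table, so for the dimmest yw values the ratios are open to the unknown background.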
